A study of Mus musculus with 12 samples.

Results

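The RSK and MSK kinases are the family of ribosomal S6 kinases that carry 2 kinase domains in a single protein. The family members were taken by gene name, and all 6 of them were found among the 55401 genes of the count table: Rps6ka1 (RSK1), Rps6ka2 (RSK3), Rps6ka3 (RSK2), Rps6ka6 (RSK4), Rps6ka5 (MSK1) and Rps6ka4 (MSK2). All 6 passed the filter on low counts, which left 18183 genes. The title of the series names RSK1, and the libraries compare the transcripts of these kinases with and without a guide against Rnf19a, a gene for a RING-type ubiquitin ligase, and with and without a treatment that the labels call IR and do not spell out. There were 12 RNA-seq libraries in 4 groups of 3. The control group carried sgNC and was untreated, the control IR group carried sgNC and was collected after 24 h of IR, the sgRnf19a group was Rnf19a-deficient and untreated, and the sgRnf19a IR group was Rnf19a-deficient and had 24 h of IR. All were labelled B16F10, a mouse melanoma line. The labels do not say whether the 3 libraries of a group stem from different cultures, or whether the guide cells were a pool or a clone, so the p-values below measure only the spread between these libraries.

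The RSKs lie at the end of the Ras, Raf, MEK and ERK cascade. ERK binds the C-terminal part of an RSK and activates it, PDK1 then phosphorylates the N-terminal kinase domain, and that domain phosphorylates substrates that act in translation, survival and transcription. The MSKs are nuclear, can be activated by ERK or by p38, and phosphorylate CREB, ATF1 and histone H3 when immediate early genes are switched on. In melanoma cells, where the Ras and Raf kinases are often active, the RSKs are known as effectors of ERK. These kinases are regulated mostly by phosphorylation, which RNA-seq does not read. The values here are transcript levels only.

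The 6 genes lie on 5 chromosomes. In the coordinates of the deposited table, whose 6 starts are those of the mm10 annotation, Rps6ka1 (ENSMUSG00000003644) is on chromosome 4 from 133847290 to 133887797 on the minus strand, and Rps6ka2 (ENSMUSG00000023809) on chromosome 17 from 7170115 to 7303315 on the plus strand. Rps6ka3 (ENSMUSG00000031309) spans 159210307 to 159364502 of the X chromosome on the plus strand, and Rps6ka6 (ENSMUSG00000025665) spans 111388192 to 111537947 of the X chromosome on the minus strand. Rps6ka4 (ENSMUSG00000024952) lies on chromosome 19 from 6829085 to 6840616 and Rps6ka5 (ENSMUSG00000021180) on chromosome 12 from 100548439 to 100725120, both on the minus strand. Starts here are the lower coordinates. The ends of Rps6ka3, Rps6ka5, Rps6ka4 and Rps6ka6 differ from the mm10 annotation by 3742, 1863, 20 and 12 bases. Transcript lengths and GC contents were taken from that annotation. The members fall into 2 kinds of transcript. The longest coding transcripts of Rps6ka1, Rps6ka2 and Rps6ka4 have GC contents of 57.3%, 54.3% and 60.3%, and those of Rps6ka3, Rps6ka5 and Rps6ka6 have 40.5%, 42.7% and 39.7%, against a median of 49.8% over the genes tested. Rps6ka3 has the longest transcript of the 6, with 7244 bases of which 4759 are 3′ UTR, and Rps6ka4 the shortest, with 3105 bases and a 3′ UTR of 729.

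The start regions divide less neatly. Of the 6 members, 5 were found in the RefSeq promoter table (GRCm38.p6), from which the 250 bases before the start were read. The windows of the kinase in the study's title, of the member that rose with IR and of a member that fell with IR are shown, 5′ to 3′ on the gene's strand, because these 3 genes behaved differently in the same libraries. Capitals mark the short CRE core TGACG, the AP-1 element TGANTCA, the GC box GGGCGG and CCAAT, each on either strand.
Rps6ka1 (chr4:133887798-133888047, minus strand): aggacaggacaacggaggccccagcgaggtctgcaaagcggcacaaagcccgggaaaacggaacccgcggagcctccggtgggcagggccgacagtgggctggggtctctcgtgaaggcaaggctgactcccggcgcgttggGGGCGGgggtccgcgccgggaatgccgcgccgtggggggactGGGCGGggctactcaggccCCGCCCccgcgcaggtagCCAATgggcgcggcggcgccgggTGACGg
Rps6ka4 (chr19:6840628-6840877, minus strand): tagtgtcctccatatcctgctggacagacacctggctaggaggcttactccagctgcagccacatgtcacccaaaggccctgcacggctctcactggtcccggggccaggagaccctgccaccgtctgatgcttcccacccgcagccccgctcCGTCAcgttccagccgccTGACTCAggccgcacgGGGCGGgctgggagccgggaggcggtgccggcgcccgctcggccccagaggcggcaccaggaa
Rps6ka6 (chrX:111537960-111538209, minus strand): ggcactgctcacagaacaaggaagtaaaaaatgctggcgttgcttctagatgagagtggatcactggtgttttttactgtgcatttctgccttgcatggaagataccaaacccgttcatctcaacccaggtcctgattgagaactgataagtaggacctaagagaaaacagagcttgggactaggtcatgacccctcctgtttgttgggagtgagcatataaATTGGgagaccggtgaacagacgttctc
The Rps6ka1 window is 74.4% GC with 30 CpG, and holds 3 GC boxes, 1 CCAAT and 1 CRE core. The Rps6ka4 window is 69.6% GC with 18 CpG, and holds 1 CRE core, 1 AP-1 element and 1 GC box. The Rps6ka6 window is 46.4% GC with 4 CpG, below the medians of 52% and 6 over 27025 promoters, and holds 1 CCAAT and no GC box. The windows of Rps6ka2 (63.2% GC) and Rps6ka5 (68% GC, with 3 GC boxes and 3 CCAAT) are GC-rich, although the Rps6ka5 transcript is not. Of all promoters, 17.9% hold the CRE core, 6.87% the AP-1 element, 32.9% a GC box and 34.5% CCAAT. The full CRE TGACGTCA (1.62% of promoters, a motif that contains the core), the E-box CACGTG (6.05%) and the GAS element TTCNNNGAA (7.18%) were in none of the 5 windows, and the ETS core GGAAG (63.6%) was in those of Rps6ka4, Rps6ka5 and Rps6ka6. These are matches of letters and not sites of binding.

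The libraries differed in ways that touch these genes. Totals were 62.7 to 71.3 M counts (M, mega) in untreated and 34.3 to 45.6 M in IR libraries, ribosomal RNA took 0.223 to 0.696% and 11.3 to 22.1% of them, and 1 read pair was worth about 4 counts. The median level of AT-rich genes minus that of GC-rich genes (log2) was 1.0 to 1.72 in untreated libraries and -1.51 to 0.29 in 5 of the 6 IR libraries. It was 2.11 in the sgRnf19a IR library numbered 4, which stands apart from its group and is given separately below. IR and these properties of the libraries cannot be told apart by group, so each member is given with a fit that also corrects for transcript length and GC content. The columns of the IR libraries carry a D and numbers other than the labels', and were placed by exclusion. Rnf19a itself read 33.5, 29.4 and 21.5 CPM (counts scaled to a common library size) in control and 27.5, 25.6 and 22.6 CPM in sgRnf19a cells, a log2 difference of -0.16 that was not called (edgeR adjusted p = 0.881), so the transcript level does not check the guide. After IR it was 4.37, 8.06 and 5.39 CPM in control and 18.2, 11.6 and 37.7 CPM in sgRnf19a cells. There it was called higher with the guide, by 1.92 (edgeR adjusted p = 0.00352) and by 1.09 (0.00413) after the correction. Its difference between the IR responses was 2.08 (edgeR adjusted p = 0.0877), and 1.38 (0.0437) after the correction. Of 8 melanocyte markers, Tyr, Tyrp1, Mlana and Slc45a2 were at 0 in all 12 libraries and the 8 together summed to at most 16.4 CPM, nearly all of it Mitf (9.18 to 13.4 CPM in control cells). Of 6 epithelial markers the keratin genes Krt8, Krt18 and Krt19 read 117 to 381 CPM in control cells, while Epcam (0.596 to 1.02 CPM), Cdh1 (at most 0.181 CPM) and Cldn4 (0) were at or near 0. The pigment genes that define melanocytic cells are thus absent from libraries labelled B16F10.

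In untreated control cells 5 of the 6 kinases were clearly expressed and MSK1 was nearly absent. In the authors' FPKM, a level scaled for gene length and library size, Rps6ka3 was at 13.3 ± 1.62 (SD, n = 3), Rps6ka1 at 11.7 ± 1.81, Rps6ka4 at 8.77 ± 2.04, Rps6ka6 at 7.70 ± 1.46 and Rps6ka2 at 6.52 ± 0.898. Each of these overlapped its neighbour in the order, so neighbours are not resolved. Every library of Rps6ka3 (at least 11.44 FPKM) lay above those of Rps6ka4 (at most 11.06), Rps6ka6 (9.348) and Rps6ka2 (7.425). Rps6ka1 (at least 10.25 FPKM) lay above Rps6ka6 and Rps6ka2, whereas Rps6ka4 overlapped Rps6ka2. Rps6ka5 was at 0.221 ± 0.0168 FPKM, below every library of the others. In untreated sgRnf19a cells the order was the same, and now Rps6ka3 at 16.3 ± 0.786 FPKM stood clear of Rps6ka1 at 10.3 ± 0.772, which stood clear of Rps6ka4 at 7.63 ± 0.614. The 2 genes for the MSKs thus read mostly as MSK2, and the RSK side was shared among 4 genes.

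**Figure D1:**
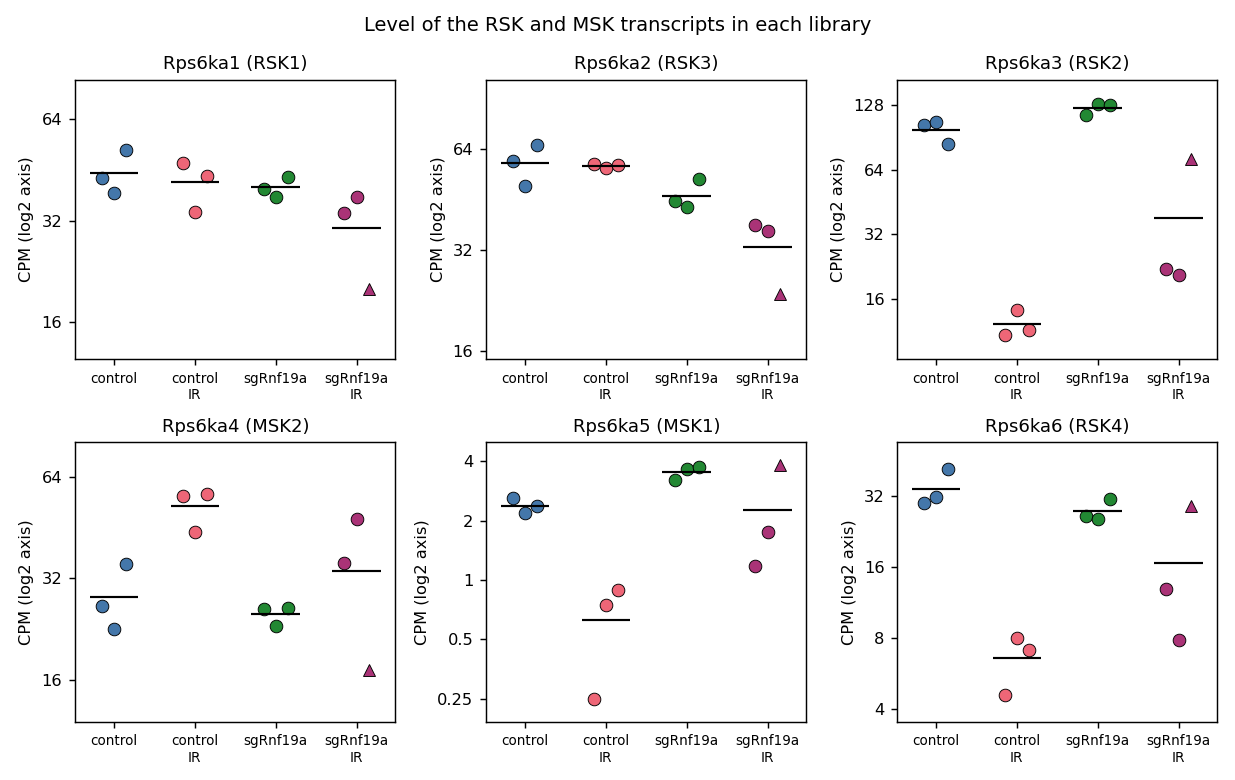
Level of each member in each library, in TMM-scaled CPM on a log2 axis, with 3 libraries a group and a line at the group mean. The triangle is the sgRnf19a IR library numbered 4, in which Rps6ka3 read 71.4 CPM against 22.1 and 20.8 in the rest of its group.

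With IR in control cells RSK2, RSK4 and MSK1 fell and MSK2 rose, while RSK1 and RSK3 did not pass the test. Of the 6 members, 4 were called at an adjusted p under 0.05, 1 higher and 3 lower. Of all genes tested 47.9% were called, 22.2% higher and 25.7% lower, and the 4 of 6 are read against that share. Libraries of the 2 groups did not overlap for the same 4 members, as for 62.1% of all genes.

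RSK1, the kinase in the title, was not called. Rps6ka1 read 42.9, 38.5 and 51.8 CPM in control and 47.5, 33.8 and 43.3 CPM in control IR libraries, and the groups overlapped. The log2 difference was -0.10 (95% interval -0.58 to 0.38, edgeR adjusted p = 0.758). RSK3 was not called either. Rps6ka2 read 58.7, 49.6 and 65.7 CPM in control and 57.7, 56.0 and 57.2 CPM in control IR libraries, with a log2 difference of -0.03 (95% interval -0.41 to 0.36, edgeR adjusted p = 0.926). The direction of both depends on the scaling. After correction for transcript length and GC content the differences were -0.32 and 0.29 (edgeR adjusted p = 0.150 and 0.186), not called. With upper-quartile factors they were 0.12 and 0.19, not called. On the authors' FPKM, where the median gene tested was itself 0.34 lower in log2(FPKM + 1) after IR, they were -0.53 and -0.43 (limma adjusted p = 0.0254 and 0.0279).

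RSK2 showed the largest fall of the 6. Rps6ka3 read 104, 107 and 84.4 CPM in control and 10.9, 14.3 and 11.4 CPM in control IR libraries, so that every IR library lay far below every control library. The log2 difference was -3.01 (SE 0.41, edgeR adjusted p = 0.000153), or 8.06-fold lower, and 7.12% of the genes tested fell further. After correction for transcript length and GC content it was -1.05 (edgeR adjusted p = 0.000144), or 2.07-fold lower, where 40.5% of genes were called. RSK4, which has been described as a brake on proliferation, fell too. Rps6ka6 read 29.8, 31.8 and 41.5 CPM in control and 4.58, 7.97 and 7.08 CPM in control IR libraries, without overlap. Its log2 difference was -2.39 (SE 0.40, edgeR adjusted p = 0.000435), or 5.24-fold lower, and -0.78 (edgeR adjusted p = 0.0123), or 1.72-fold lower, after the correction.

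The MSKs moved apart. MSK1 was scarce to begin with: Rps6ka5 read 2.6, 2.18 and 2.37 CPM in control and 0.248, 0.746 and 0.886 CPM in control IR libraries, the latter from 7, 26 and 33 counts. Its log2 difference was -1.91 (SE 0.48, edgeR adjusted p = 0.00573), and -0.37 (edgeR adjusted p = 0.470) after the correction, where the call was lost. The lowest library rests on under 3 read pairs. MSK2 was the only member that rose. Rps6ka4 read 26.5, 22.7 and 35.3 CPM in control and 56.2, 43.9 and 57.1 CPM in control IR libraries, without overlap. Its log2 difference was 0.90 (SE 0.30, edgeR adjusted p = 0.0275), or 1.86-fold higher, and 0.54 (edgeR adjusted p = 0.0598) after the correction. On the authors' FPKM the difference of Rps6ka4 was 0.38 (limma adjusted p = 0.204) with a pseudocount of 1 and 0.42 (0.225) with 0.1, not called. The edgeR call ended without the control library numbered 1 (0.85, edgeR adjusted p = 0.0822) or 2 (0.76, 0.102), without the control IR library numbered 1 (0.84, 0.0807) or 5 (0.81, 0.0839), and without the sgRnf19a IR library numbered 1 (0.80, 0.061), with the direction kept in each. A non-coding gene on the same strand, CAAA01066123.1, shares 654 bases with Rps6ka4 and held 117 to 427 counts, so some reads could have been assigned to either.

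In control cells the calls with IR sorted the members by transcript composition. The 3 members with GC-poor transcripts were called lower and the 3 with GC-rich transcripts were not, in the same direction as genes at large. By sign alone, every member but Rps6ka4 was lower with IR. In sgRnf19a cells the GC-rich Rps6ka2 was called lower as well (-0.51, edgeR adjusted p = 0.0452). The median log2 difference over all tested genes was -1.46 for 1046 transcripts of 40 to 42% GC and 0.40 for 1468 transcripts of 56 to 58% GC. Rps6ka3 (-3.01) lay below the lower quartile of its GC class, which was -2.66. Rps6ka6 (-2.39) and Rps6ka5 (-1.91) lay within the quartiles of theirs, which began at -3.06 and -2.31. Rps6ka1 (-0.10) lay just below its lower quartile of -0.06, and in sgRnf19a cells at -0.40 below -0.33. Rps6ka2 and Rps6ka4 lay within theirs, but in sgRnf19a cells Rps6ka2 (-0.51) lay below its lower quartile of -0.35. By length class in control cells, Rps6ka6 and Rps6ka3 lay below the lower quartiles of -1.52 and -1.92. Rps6ka4 lay above the upper quartile of 0.42 in its length class, and the others lay within theirs. Whether the fall of the GC-poor transcripts is a property of the cells or of the libraries was not tested. Markers of other cell types differed with IR as well in control cells: the summed level of 6 epithelial markers was 658 to 830 CPM in control and 1043 to 1216 CPM in control IR libraries, and that of 5 of 6 immune markers (Cd3e at 0) was 40.4 to 45.4 and 10.1 to 26.2 CPM. Most of the epithelial difference in control cells was Krt8 (307 to 381 and 598 to 708 CPM). Krt18 and Krt19 overlapped between the groups, and Epcam, Cdh1 and Cldn4 were at most 1.70 CPM. In sgRnf19a cells the epithelial sum was 559 to 572 CPM in untreated and 394 to 684 CPM in IR libraries, which overlapped, and the immune sum 47.2 to 63.9 and 22.5 to 39.3 CPM. Their part in the result was not tested, and in these bulk libraries fewer cells of a type and less RNA per cell cannot be told apart.

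**Figure D2:**
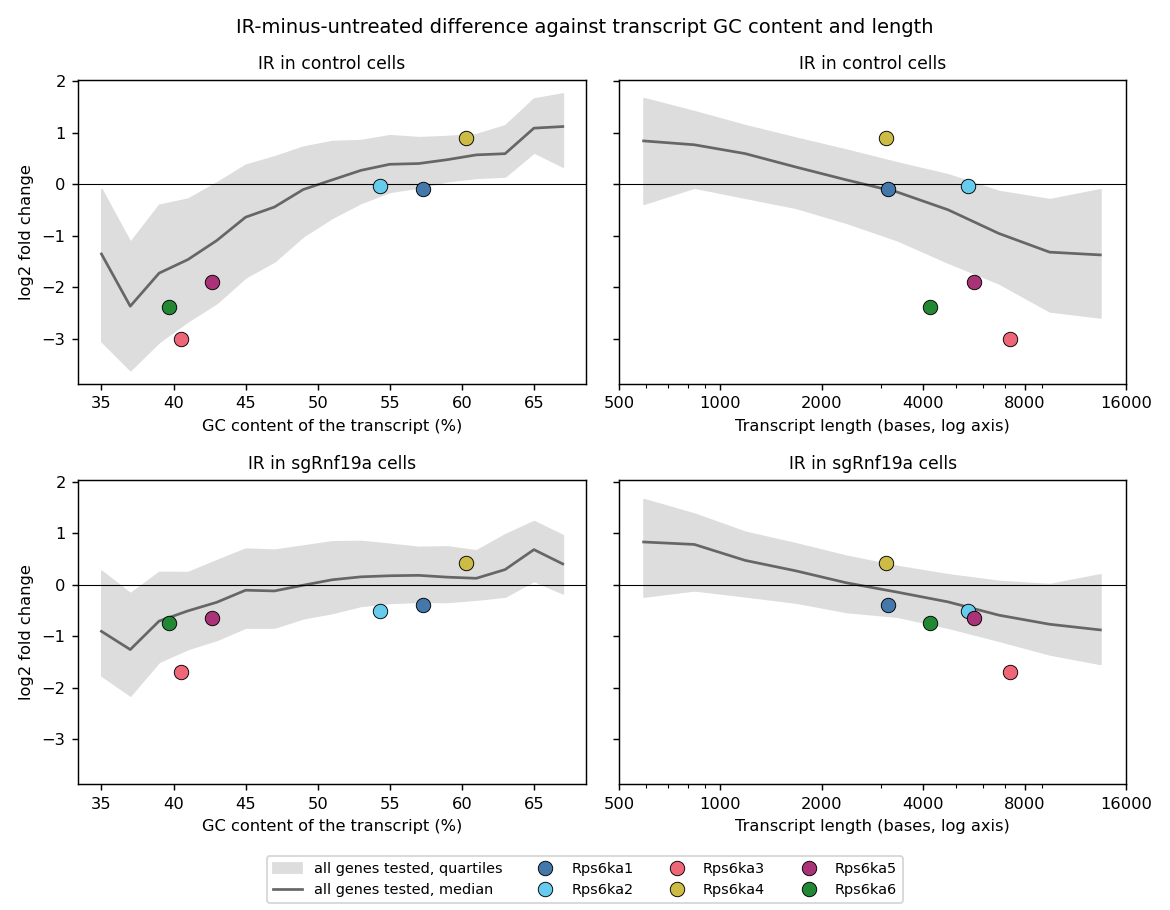
The log2 difference with IR (vertical axis) in control cells (top) and sgRnf19a cells (bottom) against GC content in percent (left) and length in bases on a log axis (right) of the longest coding transcript. The grey line and band are the median and quartiles of all genes tested in classes of at least 20 genes. The points are the 6 members. Rps6ka3 and, more narrowly, Rps6ka1 lie below the band of their GC class in both, and Rps6ka2 does in sgRnf19a cells.

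IR in sgRnf19a cells gave the same signs for all 6 members and fewer calls. Rps6ka3 and Rps6ka2 were called, both lower, against 35.6% of all genes called, 18% higher and 17.6% lower. After the length and GC correction 35.5% of genes were called. These 2 members showed no overlap between the groups, nor did 49.8% of genes. RSK2 read 115, 129 and 128 CPM in untreated and 22.1, 20.8 and 71.4 CPM in IR libraries, the highest being the library numbered 4. The log2 difference of Rps6ka3 was -1.70 (SE 0.39, edgeR adjusted p = 0.00530), -0.87 (edgeR adjusted p = 0.000595) after the correction, and -2.54 (edgeR adjusted p = 4.55e-07) without that library. RSK3 read 44.7, 42.9 and 51.9 CPM in untreated and 37.9, 36.6 and 23.8 CPM in IR libraries. The log2 difference of Rps6ka2 was -0.51 (SE 0.18, edgeR adjusted p = 0.0452), a call that was lost after the correction (-0.29, edgeR adjusted p = 0.198), without the library numbered 4 (-0.33, 0.0605) and in 7 more of the 12 fits that left out a library (edgeR adjusted p up to 0.151).

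RSK1 was again not called in the uncorrected edgeR fit. Rps6ka1 read 39.8, 37.5 and 43.2 CPM in untreated and 33.7, 37.7 and 20.1 CPM in IR libraries, the lowest being the library numbered 4, with a log2 difference of -0.40 (95% interval -0.88 to 0.08, edgeR adjusted p = 0.185). By limma on the authors' FPKM it was called lower, at -0.80 (limma adjusted p = 0.00299) with a pseudocount of 1. With a pseudocount of 0.1 it was -0.90 (0.00356), and with no filter -0.80 (0.0119). The median gene tested was itself 0.40 lower in log2(FPKM + 1). After the length and GC correction the difference was -0.46 (edgeR adjusted p = 0.0467), called lower. With the library numbered 4 also left out it was -0.32 (edgeR adjusted p = 0.126), not called. RSK4 and both MSKs were not called with that library in the fit, and were called without it. Rps6ka6 read 26.2, 25.6 and 31.1 CPM in untreated and 12.9, 7.87 and 28.9 CPM in IR libraries, with a log2 difference of -0.74 (edgeR adjusted p = 0.152), which became -1.41 (edgeR adjusted p = 0.000712) without it. Rps6ka5 read 3.22, 3.66 and 3.72 CPM in untreated and 1.18, 1.76 and 3.83 CPM in IR libraries, with log2 differences of -0.64 (edgeR adjusted p = 0.292) with and -1.28 (0.0244) without it. Rps6ka4 read 26.0, 23.0 and 26.1 CPM in untreated and 35.5, 48.0 and 17.0 CPM in IR libraries, with log2 differences of 0.42 (edgeR adjusted p = 0.307) with and 0.73 (0.00778) without it. In that library the GC-rich transcripts Rps6ka1, Rps6ka2 and Rps6ka4 were at their lowest of all 12 libraries, and the GC-poor Rps6ka5 was at its highest. With all libraries, the corrected differences were -0.03 for Rps6ka6, -0.01 for Rps6ka5 and 0.28 for Rps6ka4 (edgeR adjusted p = 0.939, 0.991 and 0.352). Without the library numbered 4 and after the correction, Rps6ka3 (-1.10, edgeR adjusted p = 8.79e-06) and Rps6ka4 (0.51, 0.0297) were the 2 members called.

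The guide against Rnf19a moved no member past the threshold in untreated cells. None of the 6 was called by edgeR at an adjusted or, before adjustment, at a raw p under 0.05, where 6.22% of all genes were called (3.02% higher, 3.2% lower, and 8.35% after the correction). DESeq2 called none of them either. The log2 difference of Rps6ka1 was -0.14 (95% interval -0.62 to 0.33, edgeR adjusted p = 0.815). The largest was that of Rps6ka5, at 0.57 (95% interval -0.39 to 1.53), where sgRnf19a libraries of 3.22 to 3.72 CPM lay above control libraries of 2.18 to 2.6 CPM. Rps6ka3 also read higher in every sgRnf19a library, with a log2 difference of 0.33 (95% interval -0.49 to 1.16). Libraries of the 2 groups did not overlap for 38.2% of all genes, so these 2 of 6 members are a share near the background. Rps6ka2 and Rps6ka6 differed by -0.32 each, with edgeR adjusted p = 0.416 and 0.754, and Rps6ka4 by -0.17. After the correction Rps6ka6 differed by -0.62 (edgeR adjusted p = 0.107), Rps6ka2 by -0.22 (0.518) and Rps6ka5 by 0.38 (0.622). Rps6ka3 was then at 0.12 (0.710), Rps6ka4 at 0.04 (0.948) and Rps6ka1 at -0.01 (0.991).

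**Figure D3:**
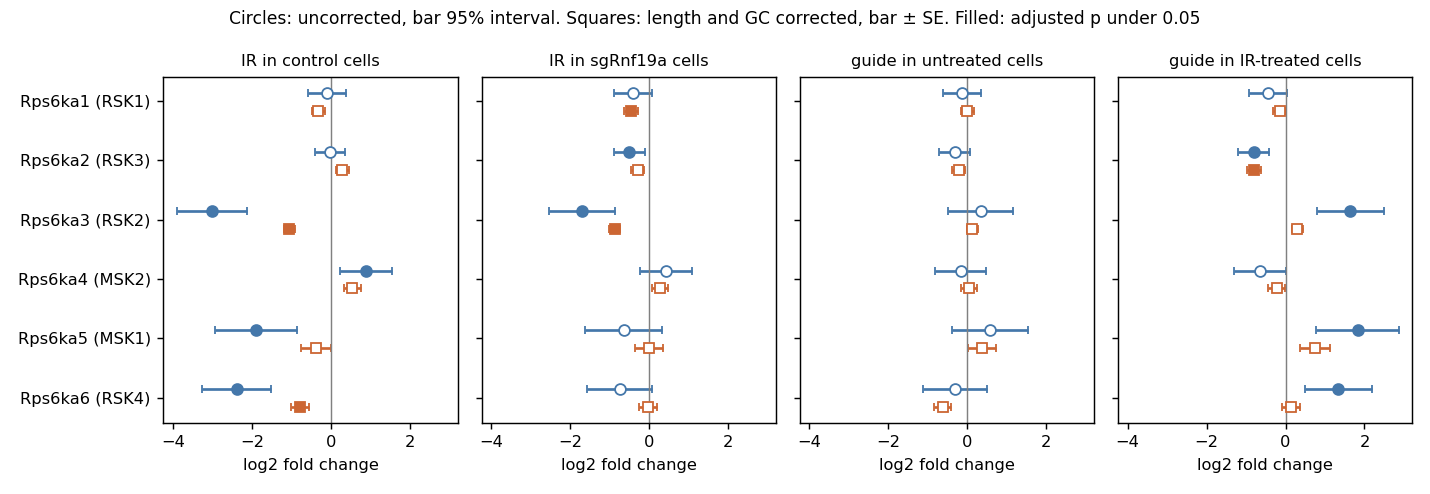
Log2 fold change of each member (rows) in 4 comparisons (panels). Circles with 95% intervals are the uncorrected edgeR values and squares with SE bars the values corrected for transcript length and GC content, filled where the adjusted p is under 0.05. Rps6ka2 in IR-treated cells is called by both, at -0.80.

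After IR, sgRnf19a cells had less RSK3 than control cells and more RSK2, RSK4 and MSK1. Of the 6 members, 4 were called, 3 higher and 1 lower, against 33.8% of all genes (21% higher and 12.8% lower). The RSK3 difference passed the threshold under every alternative run. Rps6ka2 read 57.7, 56.0 and 57.2 CPM in control IR and 37.9, 36.6 and 23.8 CPM in sgRnf19a IR libraries, without overlap. The log2 difference was -0.80 (SE 0.18, edgeR adjusted p = 0.00633), or 1.74-fold lower. After the length and GC correction it was -0.80 (edgeR adjusted p = 0.00430), where 26.1% of genes were called. Without the library numbered 4 it was -0.61 (edgeR adjusted p = 0.00530), and it lay between -0.93 and -0.61 over all 24 alternatives. Of the genes tested, 12.6% had a lower difference.

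The calls of the 3 higher members were lost with the correction. Rps6ka3 read 10.9, 14.3 and 11.4 CPM in control IR and 22.1, 20.8 and 71.4 CPM in sgRnf19a IR libraries, with a log2 difference of 1.64 (SE 0.39, edgeR adjusted p = 0.00815). It was 0.81 (edgeR adjusted p = 0.00143) without the library numbered 4 and 0.30 (edgeR adjusted p = 0.143) after the correction. Rps6ka6 read 4.58, 7.97 and 7.08 against 12.9, 7.87 and 28.9 CPM, and 1 sgRnf19a IR library lay inside the control IR range. Its log2 difference was 1.34 (SE 0.39, edgeR adjusted p = 0.0206), 0.67 (0.0762) without the library numbered 4, and 0.13 (0.712) after the correction, and its call also ended without the control IR library numbered 1 (1.13, edgeR adjusted p = 0.0880) or 5 (1.40, 0.0526). Rps6ka5 read 0.248, 0.746 and 0.886 against 1.18, 1.76 and 3.83 CPM, without overlap, with a log2 difference of 1.83 (SE 0.48, edgeR adjusted p = 0.0129), 1.2 (0.0543) without the library numbered 4, and 0.74 (0.174) after the correction. The libraries of the 2 groups did not overlap for Rps6ka2, Rps6ka3 and Rps6ka5, as for 42.5% of all genes.

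RSK1 and MSK2 were not called. The log2 difference was -0.45 for Rps6ka1 (95% interval -0.93 to 0.04, edgeR adjusted p = 0.141) and -0.64 for Rps6ka4 (95% interval -1.30 to 0.01, edgeR adjusted p = 0.120). Both became called when the sgRnf19a IR library numbered 3 was left out, at -0.63 (edgeR adjusted p = 0.0466) and -0.99 (0.0160), and both were near 0 when the correction was combined with leaving out the library numbered 4 (-0.02 and -0.02). With the correction alone they were -0.15 and -0.22 (edgeR adjusted p = 0.554 and 0.482). Sums of markers of other cell types differed with the guide. The 6 fibroblast markers summed to 487 to 525 CPM in control and 62.2 to 149 CPM in sgRnf19a cells, and to 414 to 445 and 104 to 206 CPM after IR, with none of the 6 at 0 throughout. Most of that sum was Col3a1 (323 to 361 against 47.1 to 59.8 CPM after IR), while Col1a1 overlapped and Col1a2 (14.9 to 38.4 CPM with the guide, each library above every control IR library) and Dcn (0.912 to 2.64 against 2.97 to 4.07 CPM) were higher with the guide after IR. After IR the epithelial sum was 1043 to 1216 CPM in control and 394 to 684 CPM in sgRnf19a cells, and that of 4 endothelial markers 0.947 to 2.34 and 4.53 to 5.99 CPM. Of the epithelial markers, Krt8 (598 to 708 against 151 to 318 CPM) and Krt18 (256.2 to 314.5 against 143.2 to 182.6 CPM) were lower with the guide. Krt19, Epcam, Cdh1 and Cldn4 overlapped. The part of these markers in the members' differences was not tested.

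The response to IR did not differ between the genotypes for any member past the threshold. Of the 6 members edgeR called 0, with 2 at a raw p under 0.05, where 0.682% of all genes were called and 2.05% after the correction. The difference between the 2 responses was 1.65 for Rps6ka6 (SE 0.54, edgeR adjusted p = 0.126), 1.31 for Rps6ka3 (SE 0.54, 0.196), 1.26 for Rps6ka5 (SE 0.64, 0.286), -0.48 for Rps6ka2 (SE 0.25, 0.298), -0.48 for Rps6ka4 (SE 0.42, 0.560) and -0.30 for Rps6ka1 (SE 0.31, 0.625). After the length and GC correction it was 0.76 for Rps6ka6 (edgeR adjusted p = 0.216), 0.18 for Rps6ka3 (0.686) and 0.36 for Rps6ka5 (0.771). It was then -0.58 for Rps6ka2 (0.210), -0.27 for Rps6ka4 (0.699) and -0.14 for Rps6ka1 (0.806). DESeq2 called 1 member, Rps6ka6 (1.64, DESeq2 adjusted p = 0.0280), where it called 12.5% of all genes. Without the sgRnf19a IR library numbered 3, edgeR called Rps6ka6 (1.98, edgeR adjusted p = 0.0144) and Rps6ka3 (1.60, 0.0431), where 13.4% of all genes were called. With the library numbered 4 left out in its place neither was called (0.98 and 0.48).

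As a share of the family, MSK transcripts were higher and RSK transcripts lower in the control IR libraries. The summed FPKM of the 6 members was 48.2 ± 4.44 (SD, n = 3) in control, 26.2 ± 2.50 in control IR, 45.8 ± 2.41 in sgRnf19a and 22.1 ± 1.38 in sgRnf19a IR libraries, on the scale whose median gene was 0.34 lower after IR in control cells. The MSK share of that sum was 18.5% ± 2.46 in control and 44.4% ± 2.01 in control IR libraries, and nearly all of it was Rps6ka4, at 18.1% and 44.2%. The share of Rps6ka3 was 27.9% ± 5.67 in control and 4.54% ± 1.17 in control IR libraries, and that of Rps6ka1 was 24.2% ± 1.51 and 29.6% ± 2.40. After IR in control cells the order was Rps6ka4, Rps6ka1, Rps6ka2, Rps6ka3, Rps6ka6 and Rps6ka5, and only Rps6ka3 (1.17 ± 0.206 FPKM) and Rps6ka6 (1.05 ± 0.320) overlapped. In the sgRnf19a IR group the libraries numbered 1 and 3 had MSK shares of 37.1% and 44.9%, whereas the library numbered 4 had 19.1%, inside the range of 16.3 to 21.2% of the control libraries. Its summed level of 21.7 FPKM was within its group. Its shares of Rps6ka1 (17.8%), Rps6ka2 (8.98%), Rps6ka5 (1.2%) and Rps6ka6 (21.7%) lay outside the range of all 6 untreated libraries. Those of Rps6ka3 (32.4%) and Rps6ka4 (17.9%) lay inside that range, as did the split between RSK and MSK.

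**Figure D4:**
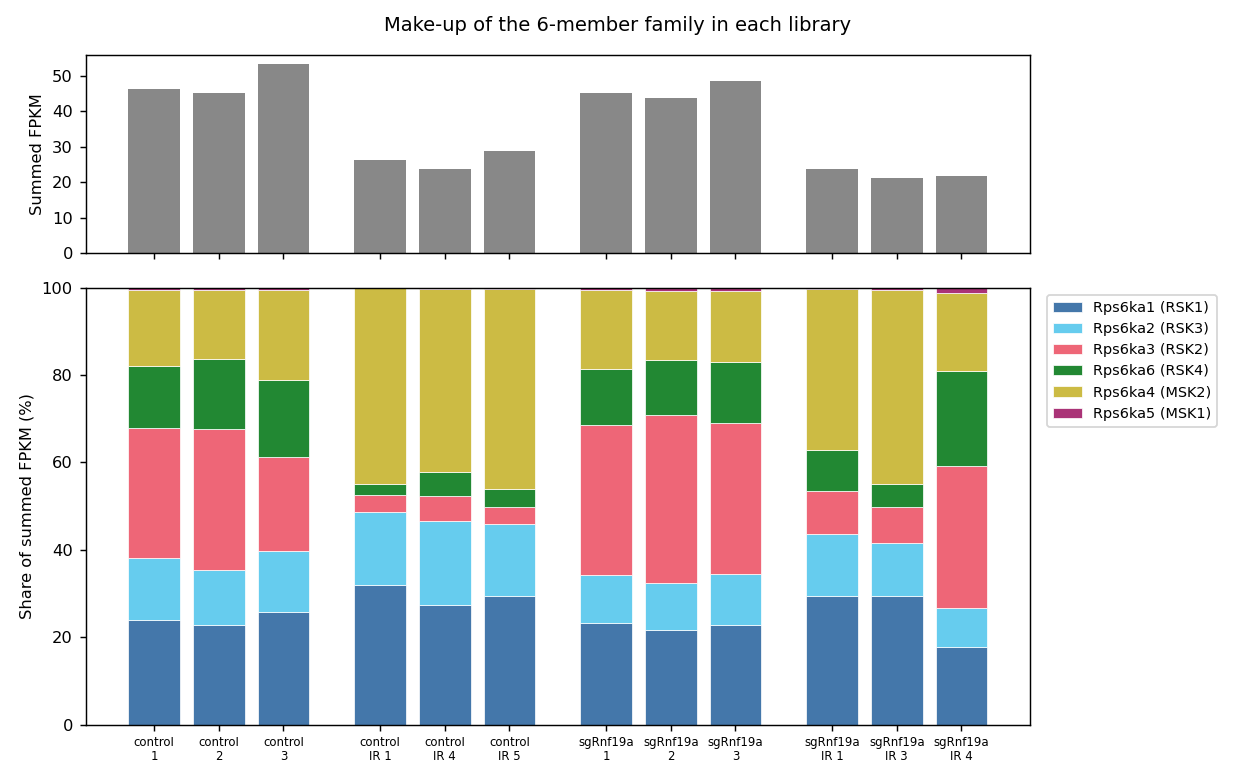
Summed FPKM of the 6 members in each library (top, bars from 0) and the percent of that sum that each member takes (bottom, stacked), 3 libraries a group with the numbers of their columns. Rps6ka4 takes 41.9 to 45.8% in the control IR libraries and 15.9 to 20.8% in the control libraries.

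The ratios between members differed in how far they moved. The FPKM ratio of Rps6ka2 to Rps6ka1 stayed between 0.414 and 0.707 in all 12 libraries. The ratio of Rps6ka3 to Rps6ka1 was 0.833 to 1.42 in control, 1.48 to 1.77 in sgRnf19a and 0.117 to 0.216 in control IR libraries, and 0.335, 0.281 and 1.83 in the sgRnf19a IR libraries numbered 1, 3 and 4. The ratio of Rps6ka4 to Rps6ka1, both GC-rich, was 0.697 to 0.806 in control and 1.40 to 1.56 in control IR libraries, without overlap. That of Rps6ka3 to Rps6ka6, both GC-poor, ranged from 0.973 to 3.04 over the 12 libraries. Over the 12 libraries the log2 levels of Rps6ka3 and Rps6ka6 had a Pearson correlation of 0.948, those of Rps6ka1 and Rps6ka2 0.886 and those of Rps6ka3 and Rps6ka4 -0.865. These describe libraries that fall into groups and share composition, and carry no test.

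The genes most like each member over the 12 libraries had transcripts of like GC content. Among 10734 named genes of at least 2 CPM on average, the 3 closest to Rps6ka1 by Pearson correlation of log2 CPM were Lasp1 (0.974), Gart (0.961) and Wbp11 (0.960), with 52.8 to 56.1% GC. Those closest to Rps6ka2 were Zfp395 (0.979), Tmem132a (0.978) and Jup (0.977), with 54.4 to 61.9% GC. Papola (0.998), Mib1 (0.998) and Dmxl1 (0.998) were closest to Rps6ka3, with 38.3 to 43.4% GC, and Hmga1 (0.993), Hmga1b (0.993) and Ehmt2 (0.988) to Rps6ka4, with 58.6 to 61.4% GC. Hmga1 and Hmga1b are near-identical copies, between which reads could be split. For Rps6ka5 they were Piga (0.991), Zfp712 (0.981) and Tmprss11e (0.978), and for Rps6ka6 Twf1 (0.993), Syncrip (0.991) and Itfg1 (0.991), all with GC contents of 37.0 to 43.9%.

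Upstream of the RSKs, the ERK cascade was mixed. Of 16 genes, all tested, 4 were called higher and 9 lower with IR in control cells, with a median log2 difference of -0.37 against -0.02 over all genes, and 81.2% called against 47.9% of all genes. After the length and GC correction 5 were higher and 5 lower, with a median of 0.13. Braf, the Raf kinase that phosphorylates MEK, read 43.0 ± 8.88 CPM in control and 5.73 ± 0.750 CPM in control IR libraries (log2 difference -2.91, edgeR adjusted p = 5.96e-05; -1.03, 9.49e-05 corrected). Sos2 and Sos1, which load Ras with GTP, fell by 2.68 and 2.29 on the log2 scale, and after the correction Sos2 differed by -1.36 (edgeR adjusted p = 0.000128) and Sos1 by -0.30 (0.144). In sgRnf19a cells 1 was higher and 7 lower with IR (35.6% of all genes called), and without the sgRnf19a IR library numbered 4 it was 4 and 9. Among the calls with all libraries were Map2k1, the gene for MEK1, which rose by 1.02 (edgeR adjusted p = 0.000568; 0.94 corrected), and Braf and Hras, which fell by 1.91 and 0.89. In untreated cells the guide raised Hras alone, from 140 ± 13.3 to 194 ± 9.54 CPM (0.47, edgeR adjusted p = 0.0259), a call that ended without any of 8 single libraries, among them each of the 3 sgRnf19a libraries. After the correction 2 of the list were higher with the guide there, Hras among them (0.54, edgeR adjusted p = 0.0132). In IR-treated cells it was 7 higher and 1 lower (33.8% of all genes called), and 1 and 3 after the correction. Map2k1 was among them, at 100 ± 12.5 CPM in control IR and 175 ± 31.7 CPM in sgRnf19a IR libraries (0.80, edgeR adjusted p = 0.00339; 0.74, 0.00409 corrected). Nras (1.0) and Braf (1.41) were called as well, and not after the correction (0.02 and 0.23).

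The p38 arm, which reaches the MSKs, had 8 of 9 genes tested, Mapk13 being too low. With IR in control cells 2 were higher and 3 lower, with a median of -0.14 (62.5% called, 47.9% of all genes), and 0 and 3 after the correction. The 3 that fell were the MAP3 kinase genes Map3k5 (-2.29, edgeR adjusted p = 5.18e-05) and Map3k7 (-2.03, 0.000238) and the MAP2 kinase gene Map2k4 (-1.77, 0.000607), each called lower after the correction too (-1.69, -0.79 and -0.86). In sgRnf19a cells 0 were higher and 3 lower, Map2k6 (-0.94), Map3k5 (-1.22) and Map3k7 (-0.95). The Map3k7 call ended without the sgRnf19a library numbered 2 or 3 (edgeR adjusted p = 0.0613 and 0.0616) and without the sgRnf19a IR library numbered 1 (0.102) or 3 (0.0636), and its value was -1.46 to -0.70 over the 12 fits. Map3k5, which encodes ASK1, was the only member of the list called with the guide in untreated cells, at 13.4 ± 1.29 CPM in control and 4.83 ± 0.564 CPM in sgRnf19a libraries (-1.47, edgeR adjusted p = 0.00133; -1.47, 0.000318 corrected). With the guide in IR-treated cells 2 were higher and 3 lower (33.8% of all genes called). Mapk12, a p38 isoform, differed by -0.82 (edgeR adjusted p = 0.00125), Map2k6 by -0.78 (0.00317) and Map2k4 by 1.52 (0.00390), all 3 called after the correction as well.

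Of 19 genes for inhibitors of the cascades, 7 were higher and 5 lower with IR in control cells (median 0.19; 63.2% called, 47.9% of all genes; 7 and 2 corrected). Dusp1, a phosphatase that acts on p38, JNK and ERK, rose from 12.9 ± 0.270 to 63.1 ± 5.86 CPM (2.29, edgeR adjusted p = 5.67e-06; 1.95 corrected). The Ras GTPase activator Rasa1 fell by 3.24 (1.76 corrected, both called) and the Raf inhibitor Spred1 by 1.94, which the correction reduced to -0.19 (edgeR adjusted p = 0.336). In sgRnf19a cells 3 were higher and 5 lower (35.6% of all genes called), with Dusp1 at 1.70 (edgeR adjusted p = 2.27e-05), Rasa1 at -1.99 and Spred3 at -0.89. The guide in untreated cells changed 0 of the 19 in the uncorrected edgeR fit. After the correction 1 was higher and 2 lower there, where 8.35% of all genes were called. In IR-treated cells 5 were higher and 8 lower (3 and 4 corrected), where 33.8% of all genes were called. Dusp1 at 63.1 ± 5.86 against 29.6 ± 4.5 CPM and Dusp9 at 99.8 ± 9.91 against 29.3 ± 11.7 CPM were lower in sgRnf19a IR libraries (-1.09 and -1.77, edgeR adjusted p = 0.000360 and 0.00201). Dusp6, the phosphatase of ERK, was higher at 108 ± 5.47 against 68.2 ± 6.72 CPM (0.66, edgeR adjusted p = 0.00186).

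Among 20 known substrates of RSK or MSK, 8 transcripts were higher and 8 lower with IR in control cells (median 0.08; 80% called, 47.9% of all genes), and 7 and 2 after the correction. The 3 with the smallest p fell: Pdcd4, an inhibitor of translation, by 1.72 (0.81 corrected, both called), Gsk3b by 1.38 and the ETS factor gene Etv1 by 1.73. After the correction Gsk3b was at -0.04 and Etv1 at 0.24, neither called. In sgRnf19a cells 6 were higher and 5 lower (55% called, 35.6% of all genes), with Rps6 at 935 ± 27.2 and 1783 ± 139 CPM (0.93, edgeR adjusted p = 0.000226), the C/EBP gene Cebpb at 2.53 and Bad, a promoter of cell death, at 1.42, all called higher after the correction too. In untreated cells the guide lowered Eif4b, a translation factor, from 886 ± 37.2 to 657 ± 14.7 CPM (-0.43, edgeR adjusted p = 0.0345), a call that ended in 9 of the 12 fits that left out a library. With the guide in IR-treated cells 5 were higher and 2 lower (35% called, 33.8% of all genes), and 0 and 3 after the correction. Creb1, the main MSK substrate in transcription, read 12.5 ± 1.28 CPM in control IR and 39.7 ± 27.7 CPM in sgRnf19a IR libraries (1.66, edgeR adjusted p = 0.00538; 0.29, 0.0664 corrected). Cdkn1b (0.68) and Pdcd4 (0.95) were called too, and not after the correction (-0.18 and 0.19).

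Immediate early genes are those that MSK and RSK signalling helps to switch on. Of 16, all tested, 10 were higher with IR, 0 lower and 6 not called in control cells (62.5% called, 47.9% of all genes), with a median log2 difference of 0.90 against -0.02 over all genes, and 9 and 0 after the correction. Jun rose from 26.6 ± 3.09 to 287 ± 25.2 CPM (3.43, edgeR adjusted p = 1.68e-06), Atf3 from 7.04 ± 0.689 to 79.4 ± 17.4 CPM (3.49, 1.35e-05) and Egr1 from 13.6 ± 1.46 to 48.9 ± 6.08 CPM (1.84, 2.48e-05). In sgRnf19a cells 8 were higher, 1 lower and 7 not called (35.6% of all genes called). Atf3 rose by 4.12, Jun by 1.97 and Egr1 by 1.27 on the log2 scale, all 3 called with the correction too. In untreated cells the guide raised Egr1 by 1.17 (edgeR adjusted p = 0.000505) and lowered Myc by 1.29 (0.000905). In IR-treated cells 2 were higher and 8 lower with the guide (33.8% of all genes called), and 1 and 7 after the correction. Jun read 287 ± 25.2 CPM in control IR and 77.7 ± 17.6 CPM in sgRnf19a IR libraries (-1.89, edgeR adjusted p = 2.49e-05; -1.70 corrected), Egr3 fell by 1.99 (edgeR adjusted p = 0.000520; -2.13 corrected) and Crem, a CREB-family gene, rose by 1.35 (0.000287; 0.58, 0.0581 corrected).

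**Figure D5:**
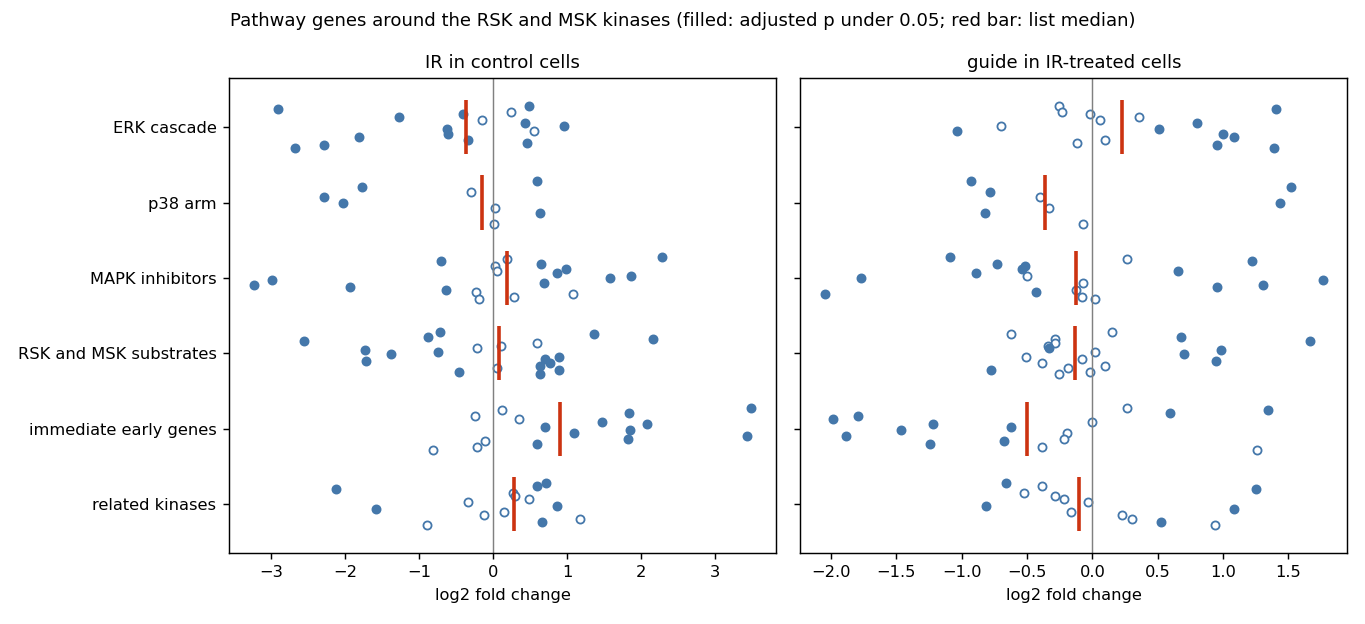
Log2 fold change of each gene tested in 6 lists (rows) with IR in control cells (left) and with the guide in IR-treated cells (right), a point a gene, filled where the edgeR adjusted p is under 0.05, with the list median as a red bar. The median of the immediate early genes is 0.90 on the left and -0.50 on the right.

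The 14 related kinases are other S6 kinases, MAPK-activated kinases and AGC kinases. With IR in control cells 4 were higher and 2 lower (median 0.28; 42.9% called, 47.9% of all genes), and 3 to 9 were called when 1 library was left out. After the correction 4 were higher and 2 lower, of which 3 and 1 had been called in the same direction before it. Rps6kb1, the gene for the single-domain S6 kinase S6K1, fell by 1.58 (edgeR adjusted p = 0.000256) and turned with the correction to 0.33 (0.0427). Sgk1 rose by 0.67 (0.98 corrected, both called). On the authors' FPKM its difference was 0.16 (limma adjusted p = 0.475) with a pseudocount of 1 and 0.18 (0.472) with 0.1, not called. In sgRnf19a cells 1 was higher and 2 lower, Sgk1 at 0.92, Mknk1 at -0.53 and Rps6kb1 at -0.65, of which Rps6kb1 again turned, to 0.37. The Rps6kb1 call ended in 11 of the 12 fits that left out a library (edgeR adjusted p up to 0.163), and that of Mknk1 without the sgRnf19a library numbered 1 (-0.49, edgeR adjusted p = 0.0588) or 2 (-0.48, 0.0658). On the authors' FPKM Sgk1 was not called in sgRnf19a cells either (0.41, limma adjusted p = 0.0782, and 0.44, 0.0827, with pseudocounts of 1 and 0.1). Without the sgRnf19a IR library numbered 4, 9 of the 14 were called with IR in sgRnf19a cells, 6 higher and 3 lower. The guide changed 0 of the 14 in untreated cells, and after the correction 1 was higher and 0 lower. In IR-treated cells 3 were higher and 2 lower (35.7% called, 33.8% of all genes), with Rps6kb1 at 1.08 and Mknk2 at -0.82, and 0 and 0 after the correction. The Mknk2 call ended without the control IR library numbered 1 (-0.75, edgeR adjusted p = 0.0863) or 5 (-0.80, 0.0706), and leaving out 1 library gave 1 to 7 calls. All these lists were chosen with results of these libraries known, and their counts are descriptions.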

How the data were processed

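RNA of 12 libraries was depleted of ribosomal RNA and sequenced as directional paired reads, per the labels' protocols. The authors deposited counts per gene and FPKM. The submitters' processing notes name Bowtie2, HTSeq, DESeq2, mm10 and GRCm39, with roles and versions not given in the sources used here. The deposited counts were handled as estimated counts and rounded, because the value 4 occurred 5833 times and 3 and 5 only 961 and 959 times among genes with transcripts over 2000 bases. The 12 count columns repeated in the FPKM table were not used.

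Genes were kept by filterByExpr (minimum count 10, total 15), scaled by TMM and tested with edgeR 4.0.16 quasi-likelihood on all 4 groups, with Benjamini-Hochberg adjustment over 18183 genes and a threshold of 0.05, in 5 comparisons. The length and GC correction added offsets from splines with 5 degrees of freedom, for 18159 genes. limma 3.58.1 was used on log2(FPKM + 1) and DESeq2 1.42.0 on counts as alternatives. Code was tested on simulated data. No pair of libraries in a group was a copy (chi-square per degree of freedom 7.65 to 136). Genes named beyond the members were the 3 with the smallest adjusted p among those called in each list and comparison, and like genes were the 3 with the highest correlation. The values of 1 gene named by this rule are not reported here.

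The members and lists were chosen with earlier results of these data known. The alternatives for lists and their named genes, and the correction without the sgRnf19a IR library numbered 4, were chosen after seeing the data.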

Additional observations from a re-analysis of the deposited data

Results flagged for a closer look

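Of the genes of the lists, 3 immediate early genes had an IR difference that differed between the genotypes by the test of that difference. Jun differed by 3.43 in control and 1.97 in sgRnf19a cells on the log2 scale, and the difference between them was -1.47 (SE 0.24, edgeR adjusted p = 0.0255; -1.36, 0.00491 after the length and GC correction). The Jun call ended in 10 of the 12 fits that left out a library (edgeR adjusted p = 0.0508 to 0.0967), with values of -1.59 to -1.29 over the 12. Fosb differed by 2.09 and 0.45, a difference of -1.63 (SE 0.27, edgeR adjusted p = 0.0268; -1.54, 0.0143 corrected). The Fosb call ended in 9 of the 12 fits (edgeR adjusted p = 0.0524 to 0.0967) and by limma on log2(FPKM + 0.1) (limma adjusted p = 0.0734) and with no filter (0.0514). Crem differed by 0.12 and 1.34, a difference of 1.22 (SE 0.24, edgeR adjusted p = 0.0496), which was not called after the correction (0.68, edgeR adjusted p = 0.242). The Crem call also ended in 10 of the 12 fits (edgeR adjusted p = 0.0720 to 0.140), with upper-quartile factors (0.0536), with no filter (0.0649) and by limma (limma adjusted p = 0.0543, 0.0950 and 0.108).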

How the results depend on the processing

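For single genes 2098 alternatives kept the direction and the side of the threshold, 168 lost the call, 29 gained it and 25 turned. Counts of calls and family shares stayed within 1.5 times or 1 SD of their value in 502 alternatives. Beyond that, fewer genes were called in 45, more were called in 17, and a family share moved in 12. The calls of Rps6ka2 with the guide in IR-treated cells, of Rps6ka3 with IR in both genotypes and of Rps6ka6 with IR in control cells held in every alternative run. Where a value moved, the cause was not tested, except that fewer libraries or genes enter some fits. The depth limits Rps6ka5 most, with 7 to 33 counts in control IR libraries.

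Of the 6 members, the length and GC correction left 2 called with IR in control cells (4 without it) and 1 with the guide in IR-treated cells (4 without it), also 1 when the sgRnf19a IR library numbered 4 was left out too. With IR in sgRnf19a cells, where 2 were called, 1 was called with upper-quartile factors and 1 with the 2 groups alone, 4 by limma on log2(FPKM + 1), 4 on log2(FPKM + 0.1) and 5 on log2(FPKM + 1) with no filter. In the same order, 34.8%, 26.2%, 63.6%, 62.7% and 28.1% of all genes were called, against 35.6% in the edgeR fit. The filtered limma fits tested 5 members, without Rps6ka5, which was the fifth call with no filter. With the guide in IR-treated cells 1 was called with the 2 groups alone, 2 by limma on log2(FPKM + 1) and 1 with no filter. Of all genes, 18.3%, 39.1% and 9.99% were called in these fits. DESeq2 called 1 in the difference between IR responses, where it called 12.5% of all genes. Leaving out 1 library at a time gave 3 to 4 called with IR in control cells, 1 to 4 with IR in sgRnf19a cells, 0 with the guide in untreated cells, 2 to 6 with the guide in IR-treated cells and 0 to 2 in the difference. In sgRnf19a cells with IR, the 4 came without the library numbered 4, where 45.7% of all genes were called.

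Directions that turned were small or followed the correction. For Rps6ka1 with IR in control cells the value was 0.12 with upper-quartile factors, 0.0178 without control IR library 4, and -0.211 to 0.0289 leaving out 1 library, the highest without control library 3. For Rps6ka2 it was 0.19 with upper-quartile factors, 0.0459 with a filter at 1 CPM, 0.0354 with counts divided by 4, 0.0731 without control library 3, 0.29 with the correction and 0.30 with the correction and without the sgRnf19a IR library numbered 4. Rps6ka4 with IR in sgRnf19a cells was -0.13, -0.16 and -0.13 by limma on FPKM (pseudocounts 1, 0.1 and 1 with no filter). With the guide in untreated cells Rps6ka4 was 0.0412 with the correction, 0.0376 with that library left out too, and -0.302 to 0.0267 leaving out 1 library, the highest without control library 3. Rnf19a with IR in sgRnf19a cells was 0.16 with the correction and -0.765 to 0.134 leaving out 1 library, the highest without the sgRnf19a IR library numbered 3. With the correction, Etv1 with IR in control cells was 0.24 (0.19 without that library) and Cdkn1b with the guide in IR-treated cells -0.18. Rps6kb1 was 0.33 with IR in control cells (0.28 without that library), 0.37 with IR in sgRnf19a cells (0.43) and -0.0753 with the guide in IR-treated cells.

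Of the lists, the ERK cascade had 13 and 13 genes called with IR in sgRnf19a cells by limma (pseudocounts 1 and 0.1; 8 by edgeR), and 7 to 13 leaving out 1 library. The p38 arm had 7, 7 and 6 there by limma (the last with no filter; 3 by edgeR) and 3 with IR in control cells after the correction (5 before). The MAPK inhibitors had 4 with the 2 groups alone (8 before). Substrates with IR in control cells numbered 9 after the correction and 10 with that library left out too (16 before). The related kinases with IR in sgRnf19a cells numbered 5 by DESeq2, 1 with the 2 groups alone, 5 by limma on log2(FPKM + 1), 6 after the correction without that library and 1 to 9 leaving out 1 library (3 in the edgeR fit), and with IR in control cells 3 to 9 (6 in the edgeR fit). With the guide in IR-treated cells, the values for the 2 groups alone, limma with no filter, the correction, and the correction without that library were 4, 3, 4 and 3 in the ERK cascade, 5, 7, 7 and 5 in the MAPK inhibitors, 2, 1, 3 and 1 in the substrates, and 0, 0, 0 and 0 in the related kinases, which had 1 to 7 leaving out 1 library.

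With counts per kilobase of the longest coding transcript in place of FPKM, the share of Rps6ka2 was 19.0% in control, 24.1% in control IR, 15.9% in sgRnf19a and 16.6% in sgRnf19a IR libraries. That of Rps6ka5 was 0.755%, 0.257% and 1.16% in the first 3 of these. Rps6ka4 took 38.2% in control IR and 15% in sgRnf19a libraries, and in the latter Rps6ka1 took 23.8%, Rps6ka3 31.8% and Rps6ka6 12.3%.

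Over all genes, the guide in untreated cells gave 1131 calls, 1778 by DESeq2, 2825 with the 2 groups alone and 642 to 2116 leaving out 1 library. The guide in IR-treated cells gave 6140, 2797 with the 2 groups alone and 2952 by limma with no filter. The difference between IR responses gave 124, 1695 by DESeq2, 372 after the correction and 5 to 2624 leaving out 1 library. IR in control cells gave 4028 higher and 4679 lower, 5122 and 3988 with upper-quartile factors, and 2115 and 6038 by limma on log2(FPKM + 1).

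The replicate numbers of the untreated groups did not pair the samples (correlations of same-numbered libraries -0.157, -0.00962 and 0.0329, and not every library correlated best with its own number). With the replicate number as a block, 3262 genes and 2 members were called with the guide in untreated cells, Rps6ka2 (-0.36, edgeR adjusted p = 0.0254) and Rps6ka6 (-0.35, 0.0474). For the comparisons with IR libraries, no paired analysis was possible because their column numbers do not match those of the labels.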
